A study of Mus musculus with 17 samples.

Results

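The cell cycle genes described here are 57 mouse genes whose products copy DNA or divide the copied chromosomes, chosen as a named list by gene symbol. Of the 57, 54 were measured on Affymetrix arrays of sorted eosinophils, among 22180 genes with a named probe set. Rfc4 and Ccne2 lay only on probe sets shared with other genes, and no probe set used here was named for Ccnb1. When a cell commits to divide, cyclins and cyclin-dependent kinases (Cdks) release E2F transcription factors, and genes for licensing replication origins, supplying nucleotides and copying DNA are switched on. After DNA has been copied, mitotic cyclins, kinases, kinesins and kinetochore proteins are made, and they condense, align and separate the chromosomes. Eosinophils are granulocytes that divide as precursors in bone marrow, leave it as cells that no longer divide, and collect in the esophagus in allergic inflammation.

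The series asks what Pirb, an inhibitory receptor of myeloid cells, does in eosinophils exposed to interleukin-13 (IL-13). All mice, controls included, carried the CC10-IL13 transgene, which uses the promoter of the airway club-cell gene CC10. Doxycycline (Dox) in the food turns on its IL-13 gene. Male and female mice were 6 to 8 weeks old, Dox was given for 2 weeks, and eosinophils were sorted by flow cytometry as CD45+, SiglecF+ and CCR3+ cells. The groups were esophagus, Pirb knockout, Dox (3 arrays); esophagus, wildtype, Dox (3); marrow, knockout, Dox (3); marrow, wildtype, Dox (3); marrow, knockout, no Dox (3); and marrow, wildtype, no Dox (2). Wildtype mice were littermates of the knockouts. No esophageal cells without Dox were included. Collagenase was used on the esophagus alone, so tissue and digestion cannot be told apart. No label says whether a sample was 1 animal or a pool, so a p-value here speaks of the spread among these samples, which may be technical.

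Each value is a log2 distance from the median array of a probe set, so 0 means the middle array and not an absence of RNA, and levels of different genes cannot be compared. The number of arrays limits the precision. The third replicate of no-Dox knockout marrow was an outlier. Over all probe sets its SD was 0.811, where no other marrow array passed 0.30. Across genes it correlated with wildtype esophagus (mean r = 0.380) rather than with its own group (mean r = -0.0268). All comparisons share 1 estimate of the spread, which includes this array. Calls of single cell cycle genes that change when it is left out are therefore given both ways. So are the counts, over all measured cell cycle genes, of calls and of unadjusted p-values under the threshold. The deleted gene Pirb ranged from 0.773 to 1.20 in knockout esophagus and from 0.749 to 2.17 in wildtype esophagus, and from -1.21 to 0.157 in knockout marrow and from -0.547 to 0.185 in wildtype marrow over both diets. The genotypes overlapped in both tissues. The sources used here do not say whether the Pirb probes lie in the deleted stretch, so this value checks nothing about the labels.

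Esophageal eosinophils had lower signals than Dox-exposed marrow eosinophils for genes of every stage, from origin licensing to cytokinesis. In knockout mice 43 of the 54 genes were lower in the esophagus and none was higher, and in wildtype mice 45 were lower and none was higher (limma, Benjamini-Hochberg adjusted p under 0.05, n = 3 arrays in each group). Of all 22180 genes, 6.04% were called lower and 4.5% higher in the knockout comparison, and 7.06% lower and 8.11% higher in the wildtype comparison. The 3 esophageal arrays lay wholly below the 3 marrow arrays in 51 of the 54 genes in knockout and in 49 in wildtype, as they did in 16% and 13.1% of all genes, and wholly above in none, against 28% and 33% of all genes. The median log2 difference of the 54 genes was -2.294 in knockout and -2.087 in wildtype, against 0.06 and 0.136 over all genes. The same 42 genes were called in both genotypes. These are sorted populations, so fewer dividing cells and less of each RNA per cell cannot be told apart.

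**Figure D1:**
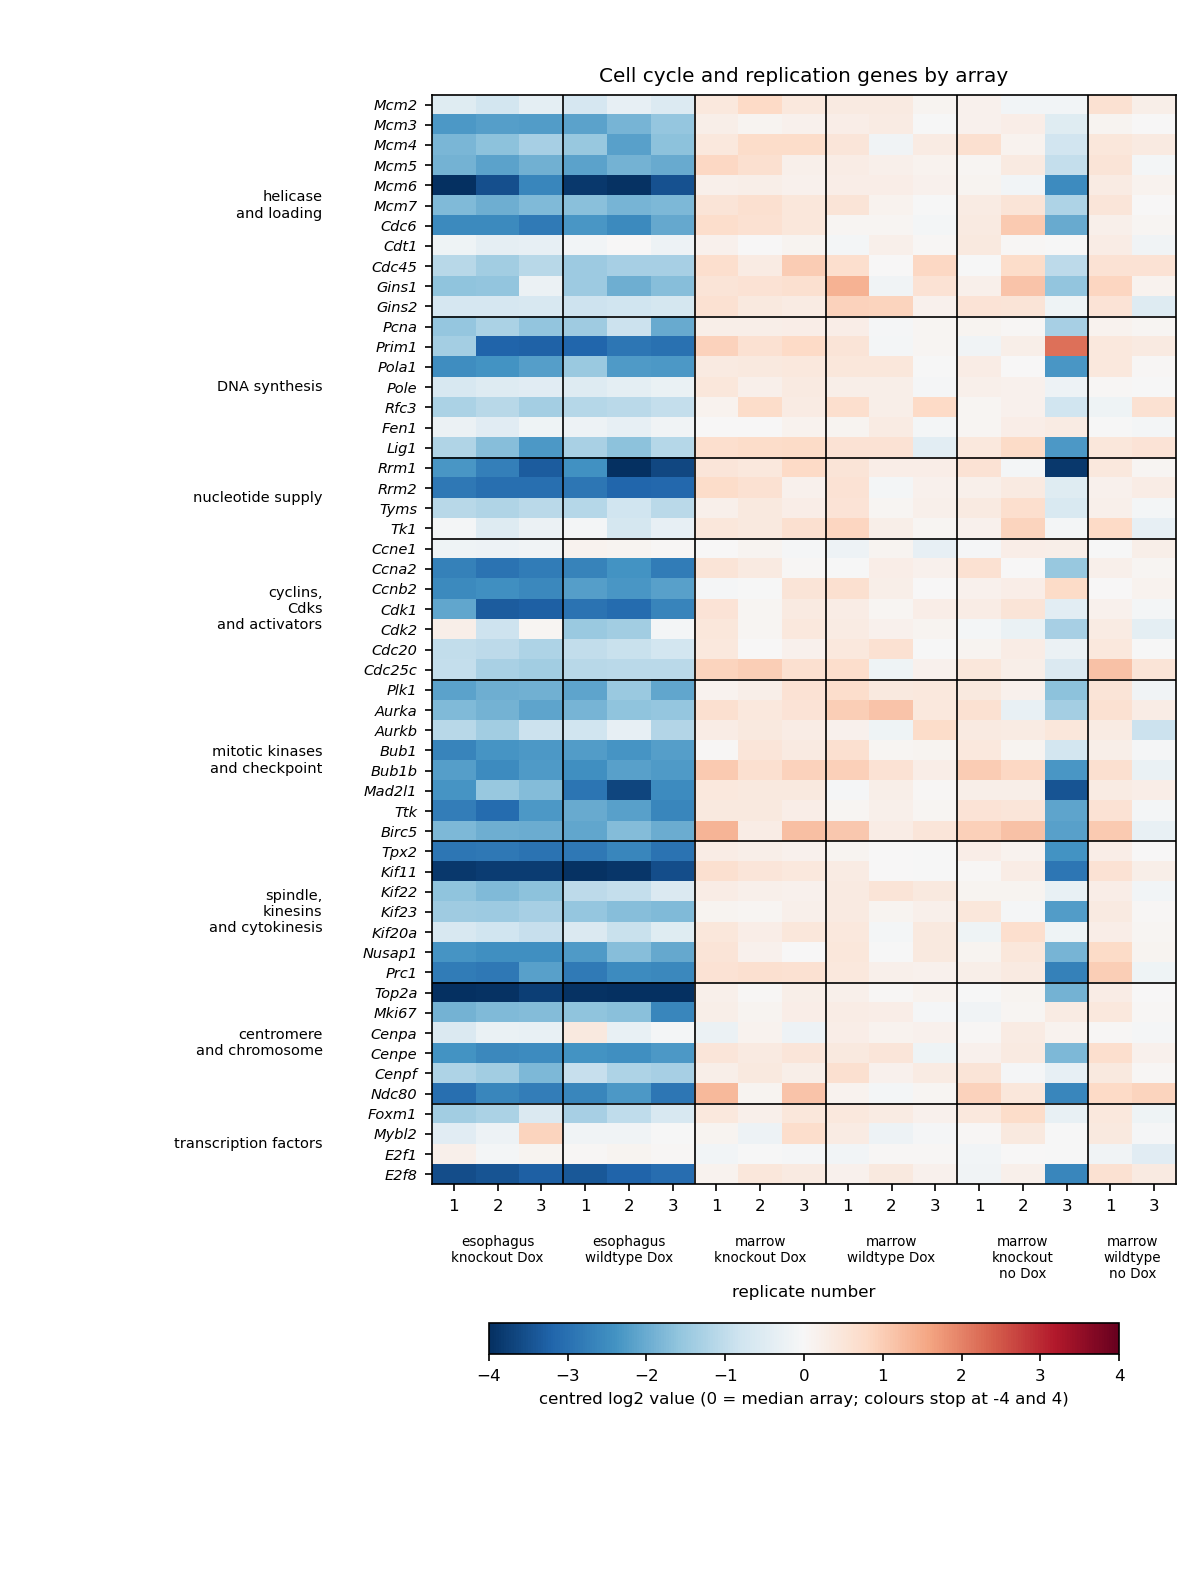
Centred log2 values of the 54 measured genes (rows, grouped by role) on the 17 arrays (columns, by group and replicate number); blue is below and red above the median array. The 6 esophageal columns are blue for most genes, the marrow columns are near 0, and replicate 3 of knockout marrow without Dox is blue for many genes, with 42 of the 54 below every other marrow array.

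With the outlying marrow array left out, the calls were 48 of 54 lower in knockout and 48 of 54 in wildtype, against 9.07% and 11.4% of all genes. Cdt1, Fen1, Gins1, Kif23 and Mad2l1 were then added in knockout, and Cdk2, Fen1 and Lig1 in wildtype. In 46 of the 54 genes, all 6 esophageal arrays lay below all 10 other marrow arrays, with or without Dox, as did 5.69% of all genes. The exceptions were the licensing factor gene Cdt1, the thymidine kinase gene Tk1, the G1 cyclin gene Ccne1, Cdk2, the mitotic kinase gene Aurkb, the centromeric histone gene Cenpa, and the transcription factor genes Mybl2 and E2f1.

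**Figure D2:**
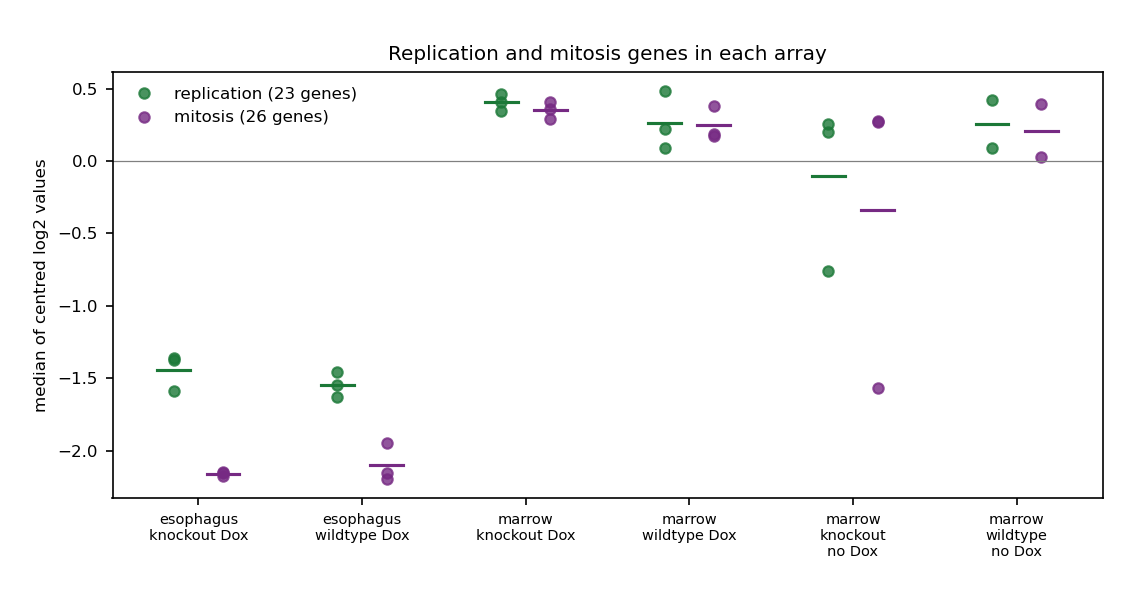
Median centred log2 value (y axis) of the 23 measured replication genes and of the 26 measured mitosis genes in each of the 6 groups (x axis); points are arrays and bars are group means. Esophageal arrays lie between -1.63 and -1.36 for replication genes and between -2.19 and -1.95 for mitosis genes, while all marrow arrays but 1 are at or above 0.03.

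The genes were also read as a replication class, of 25 genes with 23 measured, and a mitosis class, of 27 with 26 measured. Replication genes had a median value of -1.44 ± 0.13 in knockout esophagus against 0.40 ± 0.06 in knockout marrow with Dox (SD over 3 arrays), and of -1.55 ± 0.09 in wildtype esophagus against 0.26 ± 0.20 in wildtype marrow with Dox. Mitosis genes stood at -2.16 ± 0.01 in knockout esophagus against 0.35 ± 0.06 in knockout marrow, and at -2.10 ± 0.13 in wildtype esophagus against 0.25 ± 0.12 in wildtype marrow. Of the replication class 18 genes were called lower in each genotype, with median differences of -1.879 in knockout and -1.877 in wildtype. Of the mitosis class 23 were called lower in knockout and 25 in wildtype, with median differences of -2.664 and -2.525. The genes added to these class counts without the outlying array are among those named above. The difference between the classes was not tested.

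The promoters of both classes are shown because their genes fell together while the classes are known to be read through different sequence words. E2F proteins bind words at replication genes, searched for here as the word TTCCCGC, the word TTCGCGC, the word TTGCCGC and the word TTGGCGC. Many mitotic genes carry a CHR word, TTTGAA or TTCGAA, together with CCAAT boxes. Promoters from 250 bases before to 50 bases after the start were available from RefSeq (GRCm38.p6) for 46 of the 57 genes, as 51 promoters, and both strands were searched. An E2F word was present in 66.7% of 24 replication promoters and 13.0% of 23 mitosis promoters, against 9.57% of all 32851 promoters of this length. A CHR word was present in 20.8% of replication and 78.3% of mitosis promoters, against 19.2% of all. CCAAT was in 54.2% of replication promoters, 82.6% of mitosis promoters and 37.4% of all, and CHR and CCAAT stood together in 16.7%, 73.9% and 7.52% of them. A match describes letters in this window and is not shown to be a bound site.

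Each measured gene with a promoter available was ranked by the larger of its p-values in the tissue comparisons of knockout and of wildtype mice. Of these, the 3 genes of each class that ranked first are printed below, 5′ to 3′ on the strand of the gene. Capitals mark E2F, CHR and CCAAT words, also where they read on the opposite strand, and E2F words of opposite strands share letters in Mcm3 and Mcm5. The first 3 lie at chr12:24708004-24708303 (Rrm2, plus strand), chr1:20820263-20820562 (Mcm3, minus strand) and chr8:75109259-75109558 (Mcm5, plus strand).
Rrm2: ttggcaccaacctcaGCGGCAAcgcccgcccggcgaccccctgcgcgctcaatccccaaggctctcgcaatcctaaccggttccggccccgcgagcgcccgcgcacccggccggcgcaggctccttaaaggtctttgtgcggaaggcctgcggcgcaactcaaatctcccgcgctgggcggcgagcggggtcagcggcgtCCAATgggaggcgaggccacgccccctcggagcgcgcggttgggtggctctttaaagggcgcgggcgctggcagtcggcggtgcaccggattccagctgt
Mcm3: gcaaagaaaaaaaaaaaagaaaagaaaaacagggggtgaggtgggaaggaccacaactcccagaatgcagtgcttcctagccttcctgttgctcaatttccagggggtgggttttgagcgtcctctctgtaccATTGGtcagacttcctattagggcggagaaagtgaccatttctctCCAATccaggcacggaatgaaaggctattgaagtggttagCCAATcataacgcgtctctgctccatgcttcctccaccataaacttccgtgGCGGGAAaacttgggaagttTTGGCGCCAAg
Mcm5: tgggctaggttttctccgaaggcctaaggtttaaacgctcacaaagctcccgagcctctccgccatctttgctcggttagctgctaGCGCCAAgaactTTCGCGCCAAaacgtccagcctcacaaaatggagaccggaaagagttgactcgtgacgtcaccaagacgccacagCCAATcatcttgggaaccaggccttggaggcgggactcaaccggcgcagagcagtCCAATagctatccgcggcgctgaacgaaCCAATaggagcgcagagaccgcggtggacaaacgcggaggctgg
The mitosis promoters lie at chr9:70421505-70421804 (Ccnb2), chr11:99024140-99024439 (Top2a) and chr2:127831810-127832109 (Bub1), all on the minus strand.
Ccnb2: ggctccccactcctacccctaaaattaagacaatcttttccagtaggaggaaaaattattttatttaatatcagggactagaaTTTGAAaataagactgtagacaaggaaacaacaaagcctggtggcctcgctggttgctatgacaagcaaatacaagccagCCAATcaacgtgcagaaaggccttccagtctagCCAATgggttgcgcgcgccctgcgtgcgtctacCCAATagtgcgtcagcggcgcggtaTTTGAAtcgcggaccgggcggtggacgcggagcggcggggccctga
Top2a: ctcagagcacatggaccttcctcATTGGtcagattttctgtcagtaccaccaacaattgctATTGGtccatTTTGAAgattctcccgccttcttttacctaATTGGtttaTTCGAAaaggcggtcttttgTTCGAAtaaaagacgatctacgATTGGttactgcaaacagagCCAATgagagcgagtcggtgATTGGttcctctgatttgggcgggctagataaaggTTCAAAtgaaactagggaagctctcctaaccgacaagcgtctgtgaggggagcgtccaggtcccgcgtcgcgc
Bub1: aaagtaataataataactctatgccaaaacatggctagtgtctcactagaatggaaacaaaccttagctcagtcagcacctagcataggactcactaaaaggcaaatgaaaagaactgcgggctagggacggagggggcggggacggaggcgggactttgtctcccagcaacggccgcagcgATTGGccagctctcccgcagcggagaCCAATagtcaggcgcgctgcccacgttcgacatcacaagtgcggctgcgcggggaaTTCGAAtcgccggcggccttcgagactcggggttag
E2F words appear in the 3 replication promoters and in none of the 3 mitosis promoters, while each mitosis promoter holds a CHR word and CCAAT.

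Origin licensing and unwinding came down in nearly all of its genes. The Mcm2 to Mcm7 genes encode the ring-shaped replicative helicase, Cdc6 and Cdt1 load it on origins, and Cdc45 with the GINS subunits Gins1 and Gins2 activates it. Of these 11 genes 9 were called lower in knockout and 10 in wildtype. Mcm3 was at -2.30, -2.21 and -2.23 in knockout esophagus, against 0.23, 0.10 and 0.18 in knockout marrow with Dox. In wildtype it was at -2.14, -1.86 and -1.55 in esophagus, against 0.28, 0.33 and -0.001 in marrow. The tissues lay wholly apart in both genotypes. The log2 difference was -2.41 ± 0.18 in knockout and -2.05 ± 0.18 in wildtype (SE, adjusted p = 2.83e-06 and 1.76e-05).

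Mcm5, a second helicase subunit, was at -1.88, -2.14 and -1.94 in knockout esophagus, against 0.84, 0.63 and 0.20 in knockout marrow with Dox. Wildtype values were -2.15, -1.88 and -2.00 in esophagus, against 0.31, 0.22 and 0.14 in marrow. No esophageal array came near a marrow array, and the differences were -2.54 ± 0.27 and -2.23 ± 0.27 (adjusted p = 6.64e-05 and 0.000275). Mcm2 moved least of the helicase subunits. It was at -0.49, -0.72 and -0.39 in knockout esophagus, against 0.44, 0.79 and 0.42 in knockout marrow, and at -0.68, -0.34 and -0.55 in wildtype esophagus, against 0.37, 0.36 and 0.11 in wildtype marrow. Its tissues were still wholly apart, with differences of -1.09 ± 0.15 and -0.80 ± 0.15 (adjusted p = 0.000406 and 0.00426). Mcm6 moved most, with differences of -3.65 ± 0.54 in knockout and -4.01 ± 0.54 in wildtype. Cdt1 was called in neither genotype (-0.39 ± 0.13 and -0.15 ± 0.13), and Gins1 was called in wildtype (-2.33 ± 0.58) but not in knockout (-1.72 ± 0.58, adjusted p = 0.0843). Without the outlying array both passed in knockout, with the same differences (adjusted p = 0.0479 for Cdt1 and 0.0154 for Gins1).

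Among the genes that copy DNA, Pcna, the sliding clamp that holds polymerases on the template, was at -1.54, -1.27 and -1.58 in knockout esophagus, against 0.24, 0.24 and 0.27 in knockout marrow with Dox. In wildtype it was at -1.42, -0.87 and -2.00 in esophagus, against 0.26, -0.05 and 0.09 in marrow. The tissues did not overlap, and the differences were -1.71 ± 0.33 and -1.53 ± 0.33 (adjusted p = 0.00429 and 0.01). The primase gene Prim1 differed by -3.38 ± 0.54 in knockout and -3.19 ± 0.54 in wildtype, and the polymerase alpha gene Pola1 by -2.76 ± 0.50 and -2.31 ± 0.50. Of the 7 measured DNA synthesis genes 6 were called lower in knockout and 5 in wildtype. The ligase gene Lig1 was called in knockout alone (-2.45 ± 0.60), with -1.61 ± 0.60 in wildtype (adjusted p = 0.0812), and it passed in both without the outlying array (adjusted p = 0.00192 in wildtype). The flap endonuclease gene Fen1 was not called in either, at -0.34 ± 0.11 and -0.34 ± 0.11, and passed in both without that array (adjusted p = 0.0493 and 0.0325). Pole, the leading-strand polymerase, averages a pair of probe sets that differed: in the 6 esophageal arrays one ranged from -1.17 to -0.63 and the other from -0.20 to 0.25. The pair of Fen1 ranged from -0.63 to -0.14 and from -0.32 to 0.01 in those arrays.

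Nucleotide supply showed the smallest p-value of all 54 genes in both genotypes, for Rrm2, the small subunit of ribonucleotide reductase, which makes deoxyribonucleotides. It was at -2.85, -3.01 and -3.02 in knockout esophagus, against 0.73, 0.60 and 0.17 in knockout marrow with Dox. Wildtype arrays had -2.88, -3.17 and -3.15 in esophagus, against 0.58, -0.06 and 0.18 in marrow. The gap between the tissues was several times the range within either, and the differences were -3.46 ± 0.22 and -3.30 ± 0.22 (adjusted p = 5.42e-07 and 1.02e-06). Its 2 probe sets both fell, one to between -2.16 and -1.38 and the other to between -4.39 and -4.16 in esophageal arrays. The large subunit gene Rrm1 differed by -3.36 ± 0.84 and -3.73 ± 0.84, and the thymidylate synthase gene Tyms by -1.42 ± 0.25 and -1.29 ± 0.25. Tk1, which salvages thymidine, was not called (-0.78 ± 0.31 and -0.76 ± 0.31).

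Of the 7 measured cyclins, Cdks and their activators, 5 were called lower in each genotype. Cdk1, the kinase that starts mitosis, was at -2.07, -3.31 and -3.25 in knockout esophagus, against 0.54, 0.09 and 0.35 in knockout marrow with Dox. In wildtype it was at -2.96, -3.08 and -2.65 in esophagus, against 0.28, 0.07 and 0.28 in marrow. Replicate 1 of knockout esophagus was the highest esophageal array and was still far below every marrow array. The differences were -3.21 ± 0.30 and -3.11 ± 0.30 (adjusted p = 2.08e-05 and 3.88e-05).

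Ccnb2, a B-type cyclin and partner of Cdk1, was at -2.53, -2.45 and -2.57 in knockout esophagus, against -0.04, -0.01 and 0.53 in knockout marrow with Dox. Wildtype values were -2.20, -2.34 and -2.18 in esophagus, against 0.63, 0.23 and 0.01 in marrow. Esophageal replicates were tightly grouped and wholly below marrow, with differences of -2.68 ± 0.19 and -2.53 ± 0.19 (adjusted p = 1.58e-06 and 3.97e-06). The S-phase cyclin gene Ccna2 differed by -3.12 ± 0.37 and -2.75 ± 0.37. Ccne1, cyclin E1, differed by -0.20 ± 0.12 and 0.23 ± 0.12, and its partner Cdk2 by -0.49 ± 0.41 and -1.19 ± 0.41, none of them called, although Cdk2 passed in wildtype without the outlying array (adjusted p = 0.0235).

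Mitotic kinases and spindle checkpoint genes were called lower in 7 of 8 cases in knockout and in all 8 in wildtype. Bub1, a checkpoint kinase of the kinetochore, was at -2.64, -2.36 and -2.30 in knockout esophagus, against 0.05, 0.50 and 0.37 in knockout marrow with Dox. In wildtype it was at -2.25, -2.35 and -2.21 in esophagus, against 0.65, 0.08 and 0.11 in marrow. The tissues lay wholly apart, and the differences were -2.74 ± 0.24 and -2.55 ± 0.24 (adjusted p = 1.46e-05 and 3.86e-05). The kinase genes Plk1 (-2.33 ± 0.41 and -2.39 ± 0.41) and Aurka (-2.46 ± 0.36 and -2.52 ± 0.36), which act on centrosomes and the spindle, fell in both genotypes. Mad2l1, which holds back chromosome separation, was called in wildtype (-3.10 ± 0.72) but not in knockout (-2.26 ± 0.72, adjusted p = 0.0663), and it passed in both without the outlying array (adjusted p = 6.91e-05 in knockout, SE 0.25).

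The spindle and cytokinesis genes were called lower in 6 of 7 cases in knockout and in all 7 in wildtype. Kif11, the kinesin that pushes spindle poles apart, had the largest difference in knockout, at -4.33 ± 0.58, or 20.1-fold lower in the esophagus, with -3.91 ± 0.58 in wildtype. Kif22, a kinesin that moves chromosome arms, was at -1.61, -1.76 and -1.63 in knockout esophagus, against 0.28, 0.20 and 0.16 in knockout marrow with Dox. Its wildtype values were -1.04, -0.97 and -0.57 in esophagus, against 0.37, 0.51 and 0.39 in marrow. No tissue overlapped the other, and the differences were -1.88 ± 0.14 and -1.28 ± 0.14 (adjusted p = 3.02e-06 and 0.000125). Kif23, a kinesin of the midzone in cytokinesis, was called in wildtype (-1.89 ± 0.47) and missed the threshold in knockout (-1.55 ± 0.47, adjusted p = 0.0518), which it passed without the outlying array (adjusted p = 5.11e-06, SE 0.12).

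Top2a, the topoisomerase that untangles sister chromosomes, had the largest difference in wildtype. It was at -3.98, -3.96 and -3.76 in knockout esophagus, against 0.19, 0.05 and 0.24 in knockout marrow with Dox, and at -3.96, -4.72 and -4.03 in wildtype esophagus, against 0.19, 0.04 and 0.15 in wildtype marrow. Marrow arrays hardly varied and esophageal arrays lay far below them, with differences of -4.06 ± 0.39 and -4.36 ± 0.39 (adjusted p = 2.55e-05 and 2.01e-05), or 16.7-fold and 20.6-fold. Mki67, whose product Ki-67 coats mitotic chromosomes and is a common stain for dividing cells, was at -1.89, -1.75 and -1.75 in knockout esophagus, against 0.24, 0.10 and 0.27 in knockout marrow. In wildtype it was at -1.62, -1.66 and -2.61 in esophagus, against 0.28, 0.26 and -0.06 in marrow. Again the tissues did not overlap, with differences of -2.00 ± 0.22 and -2.13 ± 0.22 (adjusted p = 7.64e-05 and 6.45e-05). Of the 6 centromere and chromosome genes 5 were called lower in each genotype, and Cenpa was not (-0.28 ± 0.16 and -0.20 ± 0.16).

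Of the 4 transcription factor genes, 2 were called lower in each genotype. E2f8, a repressor that cells make in S phase, differed by -3.75 ± 0.50 and -3.46 ± 0.50, and Foxm1, an activator of mitotic genes, by -1.43 ± 0.27 and -1.29 ± 0.27. E2f1, an activator of replication genes, differed by 0.12 ± 0.09 and 0.08 ± 0.09, with 95% confidence intervals of -0.07 to 0.32 and -0.12 to 0.27. Mybl2, which acts with Foxm1 on mitotic promoters, differed by -0.13 ± 0.31 and -0.12 ± 0.31, with intervals of -0.80 to 0.53 and -0.79 to 0.54. It averages a pair of probe sets that differed: in the esophageal arrays one ranged from -0.43 to -0.08 and the other from -0.50 to 1.87. A difference in E2f1 signal as large as that in Foxm1 lay outside both of its intervals. The E2f1 signal varied little, from -0.44 to 0.06 on the marrow arrays other than the outlying array and from -0.07 to 0.19 on esophageal arrays. Centred values hold no brightness, so unchanged E2f1 RNA cannot be told from a probe set near background. Whether E2f1 RNA differed between the tissues is therefore not settled by these intervals.

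**Figure D3:**
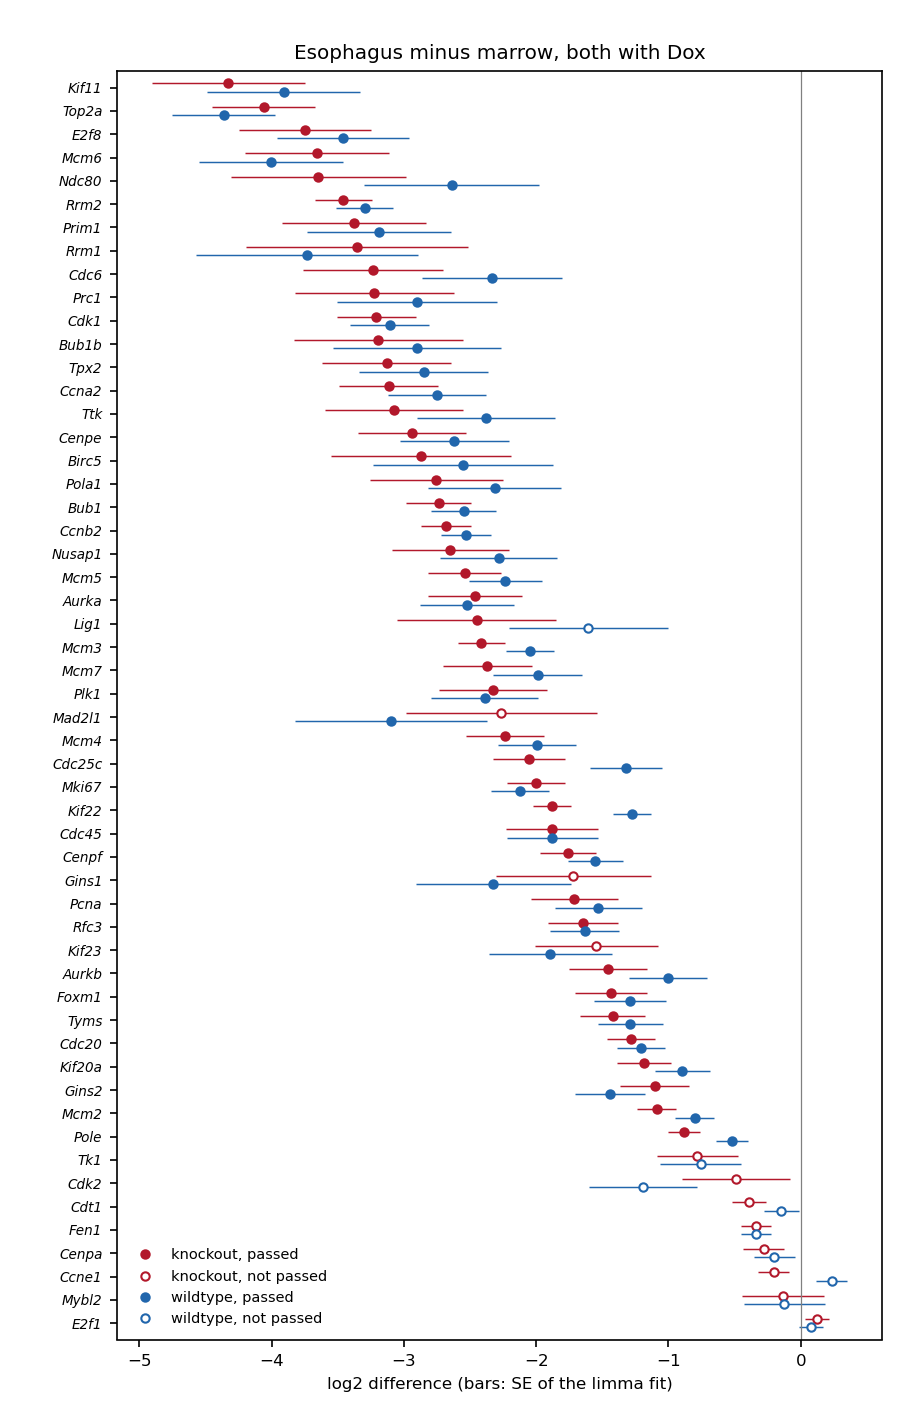
Log2 difference, esophagus minus marrow with Dox (x axis), of each of the 54 genes (y axis) in knockout and in wildtype mice; points are estimates, bars are SEs of the limma fit, and filled points passed an adjusted p of 0.05. Nearly all points lie left of 0, from -4.33 (Kif11) in knockout and -4.36 (Top2a) in wildtype up to 0.12 (E2f1) and 0.23 (Ccne1).

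The tissue difference was set against genotype in an interaction, which asks whether it differed between knockout and wildtype. None of the 54 genes passed (limma), where 0.00451% of all genes did, and 2 had an unadjusted p under 0.05, where 4.95% of all genes did. Without the outlying array none passed either, and 9 had an unadjusted p under 0.05, where 9.84% of all genes did, with Cdc6 the smallest (adjusted p = 0.289). The genes called in a single genotype with that array included, Lig1, Gins1, Kif23 and Mad2l1, had interaction differences of -0.85 ± 0.85, 0.60 ± 0.83, 0.35 ± 0.66 and 0.84 ± 1.02 (adjusted p of 0.962 or more). Without that array the SEs were 0.41, 0.61, 0.17 and 0.36 (adjusted p of 0.478 or more). No difference between genotypes in the tissue effect was thus shown for them. With the outlying array included, the order by p-value was as follows. The smallest p-values were those of Kif22 (-0.61 ± 0.20, adjusted p = 0.826), Ccne1 (-0.44 ± 0.17) and Pole (-0.36 ± 0.17). Ccne1 was at -0.18, -0.20 and -0.14 in knockout esophagus and 0.13, 0.10 and 0.04 in wildtype esophagus, against 0.03, 0.12 and -0.06 in knockout marrow and -0.22, 0.10 and -0.32 in wildtype marrow with Dox. Pole was at -0.64, -0.52 and -0.46 in knockout esophagus and -0.51, -0.38 and -0.27 in wildtype esophagus, against 0.46, 0.20 and 0.35 in knockout marrow and 0.22, 0.25 and -0.06 in wildtype marrow. The genotypes were wholly apart in the esophagus for Ccne1 and overlapped for Pole.

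Other genes of the same machinery followed the 54. In a list of 48 further replication genes, of which 46 were measured, 28 were called lower in the knockout esophagus and 23 in the wildtype esophagus, none higher, with median differences of -1.052 and -1.056, and without the outlying array 35 and 36 were. The smallest p-values belonged to Pole2, a subunit of polymerase epsilon (-2.43 ± 0.21 in knockout and -2.39 ± 0.21 in wildtype), Dtl, which targets Cdt1 for destruction (-1.88 ± 0.20 and -1.08 ± 0.20), and the clamp loader gene Rfc1 (-1.28 ± 0.16 and -1.52 ± 0.16). In a list of 87 further mitosis genes, of which 79 were measured, none was called higher, and the medians were -1.617 and -1.315. In knockout 59 were called lower and in wildtype 56, and 64 and 62 were without the outlying array. They included the kinesin gene Kif20b (-3.55 ± 0.17 and -3.60 ± 0.17), Tacc3, which steadies spindle microtubules (-3.58 ± 0.25 and -3.21 ± 0.25), and the condensin gene Smc2 (-3.69 ± 0.26 and -3.21 ± 0.26).

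Genes that hold the cycle back or act in G1 split both ways. Of 50 measured genes, 10 were called higher and 15 lower in knockout (11 and 16 without the outlying array). In wildtype 8 were called higher and 14 lower (16 and 16 without that array), and the medians were 0.074 and 0.048. The share of all genes called higher without that array was not counted. Cdkn1a, which encodes the Cdk inhibitor p21, had means of 2.52 ± 0.12 in knockout esophagus against -0.14 ± 0.14 in knockout marrow, and of 2.23 ± 0.43 in wildtype esophagus against -0.08 ± 0.08 in wildtype marrow (SD, n = 3 each). It was higher in the esophagus by 2.66 ± 0.17 and 2.31 ± 0.17 (adjusted p = 6.42e-07 and 3.76e-06), with the tissues wholly apart. Btg1 and Btg2, which slow proliferation, rose by 2.84 ± 0.16 and 4.39 ± 0.45 in knockout and by 2.30 ± 0.16 and 2.54 ± 0.45 in wildtype. Mxd1, an opponent of Myc, rose by 2.77 ± 0.20 and 1.54 ± 0.20. The G1 kinase gene Cdk6 was lower, with differences of -3.20 ± 0.49 and -4.07 ± 0.49, as was its cyclin partner Ccnd2, with -2.04 ± 0.25 and -1.12 ± 0.25.

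Markers of immature marrow cells moved with the cell cycle genes. Of 12 granulocyte progenitor markers 9 were called lower in the esophagus of each genotype. Their median value ranged from -2.68 to -1.84 in knockout esophagus and from -2.40 to -2.25 in wildtype esophagus, against 0.10 to 0.21 in knockout marrow and 0.05 to 0.25 in wildtype marrow with Dox. Ctsg, the azurophil granule protease gene, fell most in this list, with differences of -5.53 ± 0.10 and -5.53 ± 0.10, and Flt3 differed least, at 0.01 and 0.04. Of 12 neutrophil precursor markers 10 were called lower in knockout and 8 in wildtype (10 without the outlying array). They ran from Camp (-6.20 ± 0.94 and -6.33 ± 0.94) to Cxcr2 (0.38 and -1.11, not called with that array included). Their median value ranged from -2.36 to -1.60 in knockout esophagus and from -3.07 to -1.76 in wildtype esophagus, against 0.04 to 0.32 in knockout marrow and 0.02 to 0.36 in wildtype marrow. The part of these lists in the cell cycle difference was not tested, and centred values do not tell whether a marker was near 0 in either tissue.

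**Figure D4:**
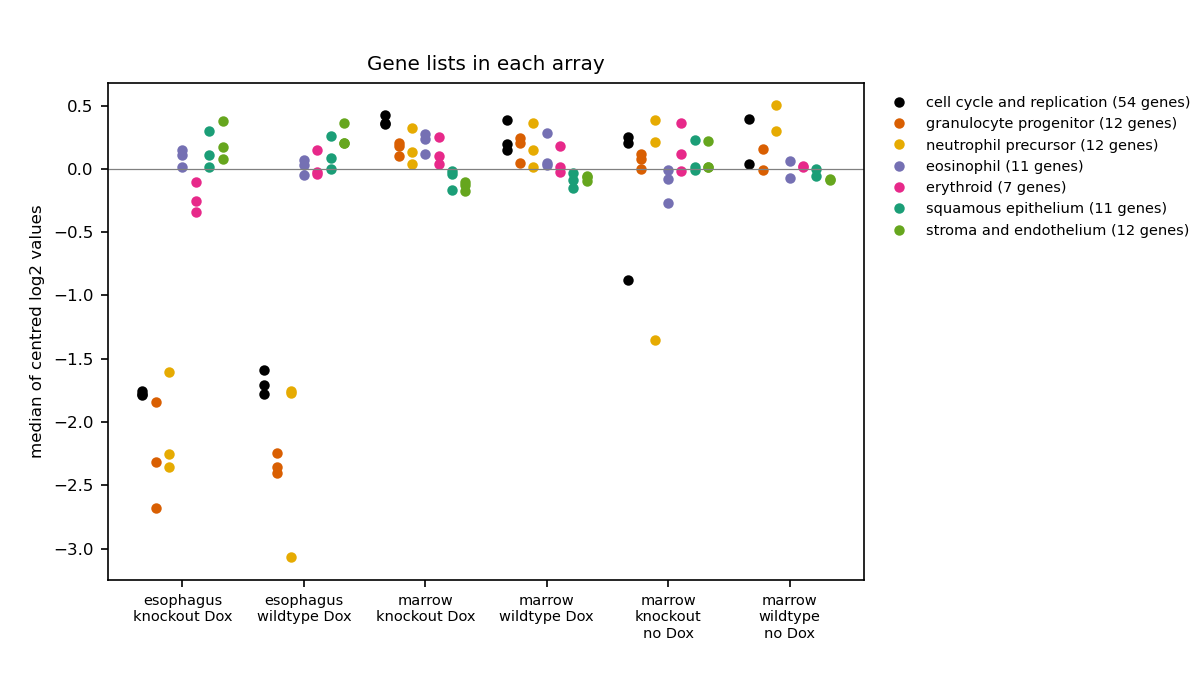
Median centred log2 value (y axis) of the 54 cell cycle genes and of 6 marker lists on each array (points), by group (x axis). Granulocyte progenitor and neutrophil precursor markers are low with the cell cycle genes in the esophagus, while the medians of eosinophil, erythroid, epithelial and stromal markers stay between -0.34 and 0.38 on every array.

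By median difference other marker lists moved less, from -1.062 (macrophage) to 0.462 (stroma and endothelium) in knockout. The granulocyte progenitor and neutrophil precursor lists stood at -2.715 and -2.705 there. By calls, macrophage markers moved about as much in knockout, with 76.9% called against 75% of granulocyte progenitor markers. Of 11 eosinophil markers 3 were called higher and 4 lower in knockout, and 1 higher and 3 lower in wildtype. The granule protein gene Prg3 was the lowest (-4.91 ± 0.52 and -5.22 ± 0.52), while the lipoxygenase gene Alox15 was the highest, at 3.36 in knockout and 2.95 in wildtype. Macrophage markers had 9 of 13 called lower and 1 higher in knockout, and 3 lower and 1 higher in wildtype, from Mertk (-3.06 ± 0.37 and -2.94 ± 0.37) to Adgre1 (1.68 and 1.64). Mast cell and basophil markers had 4 of 9 lower in each genotype, led by Mcpt8 (-4.37 ± 0.74 and -4.01 ± 0.74). This list shares Cpa3 and Kit with the granulocyte progenitor list, so the counts of these lists are not separate. Erythroid markers had 2 of 7 lower in knockout and 1 in wildtype, and B and plasma cell markers 1 of 11 lower in knockout and none in wildtype. No T and NK cell marker of 10 was called. Squamous epithelium markers had 1 of 11 higher in knockout (Krt13, 0.97) and 1 lower in wildtype (Cdh1, -0.87), and stroma and endothelium markers had 4 of 12 higher in knockout and 1 in wildtype. Without the outlying array the wildtype counts were 5 lower for eosinophil, 6 lower for macrophage, 2 higher and 5 lower for mast cell and basophil, 3 higher and 1 lower for B and plasma cell, 2 higher and 1 lower for squamous epithelium, and 7 higher for stroma and endothelium markers. In knockout, 4 eosinophil, 5 stroma and endothelium, 2 squamous epithelium, 1 B and plasma cell and 1 T and NK cell markers were then called higher. The knockout counts called lower were then 10 for macrophage and 5 for mast cell and basophil markers. Of all genes, 6.04% were called lower and 4.5% higher in knockout, and 7.06% and 8.11% in wildtype. Without the outlying array 9.07% were called lower in knockout and 11.4% in wildtype. The share of all genes called higher without that array was not counted, so the marker counts called higher there cannot be set against it. The part of the marker lists was not tested.

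Whether loss of Pirb changed cell cycle genes in the IL-13-exposed esophagus was asked by comparing knockout with wildtype arrays there. Kif22 was lower in knockout, and the other 53 genes did not pass the test. Of all genes 0.0361% were called lower and 0.311% higher. Kif22 was at -1.61, -1.76 and -1.63 in knockout esophagus, against -1.04, -0.97 and -0.57 in wildtype esophagus. The genotypes did not overlap, and the log2 difference was -0.81 ± 0.14 (SE, limma adjusted p = 0.0328), or 1.75-fold lower in knockout. In marrow with Dox the knockout arrays of Kif22 lay below the wildtype arrays too, with a difference of -0.20 ± 0.14, without passing the test. The esophageal call depended on the processing: the difference was below 0 in all 25 alternatives, from -0.93 to -0.66, but passed in 10 of them, with adjusted p between 0.00511 and 0.213. It did not pass without any 1 of the 3 knockout esophageal arrays, of the 6 Dox marrow arrays, or of wildtype esophageal replicates 2 and 3.

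The median knockout minus wildtype difference of the 54 genes in the esophagus was -0.088, against -0.095 over all genes. Of the 54, 4 had an unadjusted p under 0.05, where 14.7% of all genes did: Kif22, Cenpa (-0.38 ± 0.16), Ccne1 (-0.26 ± 0.12) and Mcm3 (-0.40 ± 0.18). Without the outlying marrow array 7 did, where 26.2% of all genes did: the same 4 with Mad2l1, Cdk2 and Kif23. Knockout arrays lay wholly below wildtype arrays in 6 genes and wholly above in 3, where 17.6% and 5.67% of all genes did so. Cenpa was at -0.59, -0.26 and -0.30 in knockout and 0.38, -0.31 and -0.07 in wildtype esophagus, and its genotypes overlapped. The 95% interval of the difference was -0.33 to 0.30 for Mcm2, -0.31 to 0.64 for Mki67 and -0.51 to 1.18 for Top2a, and genotype differences of either sign inside these intervals could not be told from 0. Mad2l1 was higher in knockout by 1.16 ± 0.72, with the genotypes wholly apart, and it passed when the outlying marrow array was left out (adjusted p = 0.0317), as did Kif22 (adjusted p = 0.00794). Of all genes 1.69% were then called lower and 1.75% higher. With arrays weighted by their quality, Mcm3 fell by 0.53 in knockout and passed (adjusted p = 0.0466). In the lists of further replication, mitosis and G1 genes described above 1 gene passed, the G1 control gene Mxd1, which was 1.02 ± 0.20 higher in knockout (adjusted p = 0.0477). Without the outlying array Plk4, Cdkn3 and Tob1 were called higher in knockout as well.

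**Figure D5:**
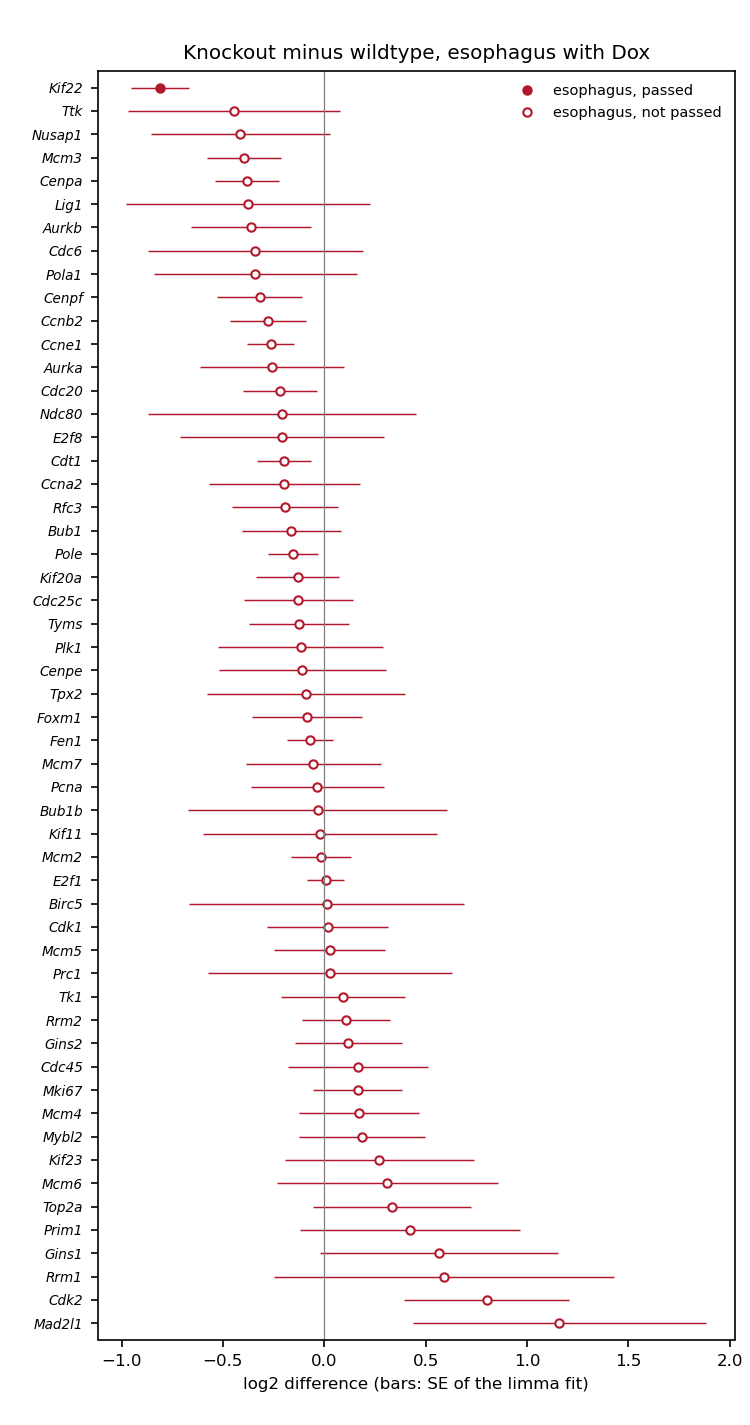
Log2 difference, knockout minus wildtype in the Dox-exposed esophagus (x axis), of each of the 54 genes (y axis, ordered by the difference); points are estimates, bars are SEs of the limma fit, and the filled point passed an adjusted p of 0.05. Kif22 at -0.81 is the filled point, and the others spread on both sides of 0 up to Mad2l1 at 1.16.

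In Dox-exposed marrow no cell cycle gene passed between knockout and wildtype (limma), nor did any of the 22180 genes, and the median difference was 0.119 against -0.02 over all genes. A single one of the 54 had an unadjusted p under 0.05, where 1.83% of all genes did. Without the outlying array 5 did, Cdc6, Ndc80, Kif11, Cdc25c and Mcm7, where 3.36% of all genes did, and none passed. With it included the 1 gene was Cdc25c, the phosphatase that activates Cdk1, at 0.89, 0.99 and 0.66 in knockout, against 0.72, -0.17 and 0.17 in wildtype, a difference of 0.60 ± 0.27 with overlapping groups. Cenpa was at -0.22, 0.13 and -0.22 in knockout, against 0.27, 0.14 and 0.18 in wildtype (-0.30 ± 0.16). Mcm2 was at 0.44, 0.79 and 0.42 in knockout, against 0.37, 0.36 and 0.11 in wildtype (0.27 ± 0.15). Both were wholly apart without passing, with Cenpa lower and Mcm2 higher in knockout. Over the 54 genes, knockout arrays lay wholly above wildtype arrays in 9 and wholly below in 2, where 4.11% and 7.62% of all genes did so.

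Without Dox, no gene passed between knockout and wildtype marrow either (limma), of the 54 or of all genes, and 4 of the 54 had an unadjusted p under 0.05, where 8.16% of all genes did. The median difference of the 54 was -0.389, against 0.094 over all genes, and it was 0.036 without the outlying array, where 5 had an unadjusted p under 0.05 and 3.91% of all genes did. Cdc25c was at 0.46, 0.22 and -0.57 in knockout, against 1.18 and 0.50 in wildtype, a difference of -0.80 ± 0.30 that was -0.50 without the outlying array. Mcm2 was at 0.18, -0.11 and -0.11 in knockout, against 0.60 and 0.23 in wildtype (-0.42 ± 0.16, and -0.37 without that array). E2f1 was at -0.10, 0.002 and -0.02 in knockout, against -0.15 and -0.44 in wildtype (0.26 ± 0.10, and 0.25 without that array). The groups were wholly apart for all of these, with knockout lower for Cdc25c and Mcm2 and higher for E2f1. Of the 54 genes 5 were wholly lower and 5 wholly higher in knockout, where 5.72% and 17.6% of all genes were.

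Dox, which turns on IL-13, was compared with no Dox in marrow of each genotype. None of the 54 genes passed in knockout or in wildtype marrow (limma), where 0.0225% of all genes passed in each. In knockout marrow 12 of the 54 had an unadjusted p under 0.05, where 27.3% of all genes did, and the median difference was 0.633, against -0.133 over all genes. Without the outlying no-Dox array it was 0.079, and 2 had an unadjusted p under 0.05, where 9.98% of all genes did. Mcm2 was at 0.44, 0.79 and 0.42 with Dox, against 0.18, -0.11 and -0.11 without Dox in knockout marrow. All its Dox arrays were higher, by 0.56 ± 0.15 (adjusted p = 0.146), and by 0.51 without the outlying array (adjusted p = 0.402). Cdc25c was at 0.89, 0.99 and 0.66 with Dox, against 0.46, 0.22 and -0.57 without Dox (0.81 ± 0.27, and 0.50 without the outlying array). Mcm5 was at 0.84, 0.63 and 0.20 with Dox, against 0.08, 0.36 and -0.95 without Dox (0.73 ± 0.27, and 0.34 without that array). Cdc25c was wholly apart between the diets, and Mcm5 overlapped. Dox arrays lay wholly above no-Dox arrays in 11 of the 54 genes and wholly below in none, where 8.34% and 28.1% of all genes did so.

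In wildtype marrow the median difference between Dox and no Dox was 0.009, against -0.005 over all genes, and 2 of the 54 genes had an unadjusted p under 0.05, where 4.31% of all genes did. Without the outlying array, which is in neither of these groups, 5 did, where 6.97% of all genes did. E2f1 was at -0.12, 0.06 and 0.03 with Dox, against -0.15 and -0.44 without Dox (0.28 ± 0.10, adjusted p = 0.899). Gins2 was at 0.93, 0.89 and 0.17 with Dox, against 0.54 and -0.52 without Dox (0.65 ± 0.29). Kif22 was at 0.37, 0.51 and 0.39 with Dox, against 0.26 and -0.10 without Dox (0.34 ± 0.16). E2f1 and Kif22 were wholly higher with Dox, and the Gins2 groups overlapped. Of the 54 genes 3 were wholly higher and 2 wholly lower with Dox, where 12.5% and 12.9% of all genes were.

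The genotype by Dox interaction in marrow passed for none of the 54 genes and none of the 22180 (limma). Of the 54, 2 had an unadjusted p under 0.05, where 6.27% of all genes did, and 5 without the outlying array, where 4.38% did. The smallest p-values were those of Cdc25c (1.41 ± 0.40), Mcm2 (0.69 ± 0.22) and E2f1 (-0.29 ± 0.14), each with an adjusted p of 0.663, and without the outlying array the differences were 1.10, 0.64 and -0.28. The median interaction was 0.567, against -0.115 over all genes, and 0.055 without that array.

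On the outlying array itself, 42 of the 54 genes lay below every other marrow array, as did 18.5% of all genes. Prim1 (2.21) and Ccnb2 (0.77) lay above every other marrow array, as did 53.8% of all genes. Kif11 was at -2.88 on it, against -0.03 to 0.64 on the other marrow arrays, and Top2a at -1.88, against -0.02 to 0.31. Mki67, by contrast, was at 0.32, within the other marrow arrays. Of the 54 genes, 19 lay below the highest esophageal array on it. The share of all genes that did so was not counted, so this number does not set the cell cycle genes apart. The median of granulocyte progenitor markers on it was 0.001 and that of neutrophil precursor markers -1.35, against -0.01 to 0.25 and 0.02 to 0.50 on the other marrow arrays. The progenitor median thus lay at the lower end of the other marrow arrays, and the neutrophil precursor median lay below them. The median of the cell cycle genes on it was -0.877, against 0.041 to 0.425 on the other marrow arrays. A median does not place the single markers of a list, and what sets this array apart was not tested.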

How the data were processed

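Total RNA of sorted eosinophils was amplified (Nugen Ovation One-Direct), labelled with biotin and hybridised to 1-colour Affymetrix arrays, per the labels' protocols. The submitters' processing notes name Affymetrix Expression Console. Summarization and normalization are not given in the sources used here. For 33793 probe sets on 17 arrays the authors deposited log values, which were taken as log2 although the log base is not stated. Each probe set was centred before deposit: in 97.08% a pair of values was equal and opposite within 2e-05. Differences between groups are unaffected, but brightness is lost and no filter on dim probes could be applied.

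Gene symbols came from the platform annotation, updated through Entrez identifiers in a RefSeq gene table (23328 of 23521 probe sets with 1 symbol). Probe sets with several symbols (1814) or none (8458) were left out, and several probe sets of a gene were averaged, which gave 22180 genes. Of the 54 measured cell cycle genes, 4 had more than 1 probe set. No column of the table was unused.

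A linear model of the 6 groups was fitted to all 17 arrays with limma 3.58.1 and its eBayes step, under R 4.3.3. The p-values of the 9 two-sided contrasts were adjusted (Benjamini-Hochberg) over all genes, with a threshold of 0.05. The fit was also run on simulated data in which each gene had the same spread on every array. That run does not speak for data with an outlying array. Errors of differences are standard errors. Sample titles gave the groups and replicate numbers. The tissue, genotype, Dox and interaction contrasts share arrays, so they are not independent of each other. Alternatives were a replicate block, quantile normalization, median centring of each array, array weights, the lowest-numbered probe set, probe sets with several symbols kept, robust eBayes, fits of only the groups compared, and leaving out each array.

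The cell cycle genes, the further lists and the markers were chosen with earlier results of these data known. Values of every array are given for up to 8 called genes per contrast by p-value, for the 3 smallest p-values where none was called, and for Mki67, Top2a, Mcm2, Mcm5, Cdk1, Pcna and Kif22. Genes of other lists are named among the 6 smallest p-values of those called, or the 2 smallest.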

Additional observations from a re-analysis of the deposited data

How the results depend on the processing

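Every one of the 89 calls followed singly kept its direction in all 25 alternatives; 38 of the 43 knockout and 35 of the 45 wildtype tissue calls also passed in each of them. Quantile normalization changed the median tissue difference to -1.757 in knockout and -1.293 in wildtype, for mitosis genes to -1.858 in knockout and -1.499 in wildtype, for replication genes to -1.23 in wildtype, and the median Dox difference in knockout marrow to 0.265. It shifted the median of all genes by -0.083 in the wildtype tissue contrast, and median centring shifted it by -0.104. Tissue calls numbered 39 to 48 in knockout and 38 to 48 in wildtype when single arrays were left out, with medians of -2.355 to -2.218 and -2.186 to -1.971. In the esophagus, 0 cell cycle genes passed between knockout and wildtype with the replicate block, quantile normalization, median centring or only the esophageal groups fitted, 2 passed with array weights, and 0 to 2 without single arrays. The replicate numbers were not shown to pair samples (correlations of deviations from -0.09 to 0.203); the block left 43 tissue calls in knockout and 44 in wildtype, and the calls it ended were those of Kif22 between the genotypes in the esophagus (adjusted p = 0.0605) and of Aurkb between the tissues in wildtype.

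Knockout marrow without Dox depended on its outlying array. The genotype median there was 0.029 with array weights and -0.617 to 0.036 without single arrays. The median Dox difference in knockout was 0.106 with array weights, with 4 genes passing (Aurka, Cdc25c and Mcm2 higher with Dox, Cenpa lower), and 0.079 to 0.846 without single arrays, with 0 to 1 passing. The 1 was Aurka without replicate 1 of knockout marrow without Dox (1.37, adjusted p = 0.0425). The genotype by Dox median was 0.056 with array weights and 0.055 to 0.815 without single arrays. The causes were not tested. The planned filter on dim probes was not run, because centred values hold no brightness, so signal over background is unknown.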

Other observations

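Rfc4 and Ccne2 could be read only through probe sets shared with another gene, so their values belong to either gene of the pair. The probe set of Rfc4, a clamp loader subunit, and Eif4a2 was lower in the esophagus by -2.19 ± 0.43 in knockout and -1.89 ± 0.43 in wildtype (SE, limma adjusted p = 0.00474 and 0.0126). The probe set of Ccne2, cyclin E2, and Ints8 differed by -2.19 ± 0.41 and -1.99 ± 0.41 (adjusted p = 0.00356 and 0.00791).

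A pair of probe sets shared by Top2a and Taf1d did not follow the probe set named for Top2a alone. In knockout esophagus they were at 0.92, 0.07 and -0.19 and at 1.45, 0.14 and -0.14, against -1.90, -1.55 and -2.10 and -2.39, -2.40 and -2.80 in wildtype esophagus. In marrow with Dox they were at 1.52, 0.62 and 1.22 and at 1.53, 1.19 and 1.41 in knockout, against -0.49, -0.93 and -0.07 and -0.63, -1.67 and -0.56 in wildtype. Knockout arrays were wholly above wildtype arrays in both tissues, whereas the genotypes overlapped for the Top2a probe set in the esophagus. These values were picked after they were seen and were not tested. Without Dox the same probe sets overlapped between knockout and wildtype marrow. Probe sets that Mcm7, Nusap1 and Tyms share with other genes did not follow their own either. In esophageal arrays they ranged from -0.13 to 1.53 (Mir25 and Mcm7) and from -0.16 to 0.27 (Mir93 and Mcm7). That of Oip5 and Nusap1 ranged from -0.18 to -0.05, and that of Tyms-ps and Tyms from -0.075 to 0.16. The probe sets of Mcm7, Nusap1 and Tyms alone ranged from -1.96 to -1.69, from -2.46 to -1.71 and from -1.2 to -0.79. Nor were these tested.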
